A study of Mus musculus with 12 samples.

Results

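The transcriptome described here is that of subcutaneous 4T1 tumours from mice kept at ambient altitude and given vehicle only, the group labelled MC. It comprises 3 of the 12 libraries of the series (MC1, MC2 and MC3), chosen by their labels alone. Each library came from 1 tumour of a different mouse. 4T1 is a mouse mammary carcinoma line of BALB/c origin, grown here under the back skin of female BALB/c mice aged 6 to 8 weeks, so tumour cells and host share a strain. The mice lived in Lanzhou at about 1500 m, were acclimatized for 3 days before inoculation, and received intraperitoneal vehicle once a day for 10 days from day 9 after inoculation. Tumours were taken on study day 22. The animals were therefore handled and injected, not untouched, and the vehicle is not named in the labels. The rest of the series added IOX2, a simulated altitude of 3500 m, or both, and those tumours are not analysed here.

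Such a tumour is a mixture. Carcinoma cells of epithelial origin carry keratin filaments and junction proteins, fibroblasts lay down collagen matrix, endothelial cells and the mural cells around them form vessels, and leukocytes enter from the blood. The 4T1 line is widely used as a model of triple-negative breast cancer, meaning disease that lacks the estrogen and progesterone receptors and HER2 amplification, and it is known for secreting colony-stimulating factors that drive myeloid cells. Bulk RNA adds all of these cells together. For every level below, fewer cells of a type and less RNA per cell cannot be told apart.

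Levels are the authors' FPKM values, in which the fragments counted for a gene are divided by its length in kilobases and scaled to the library total, so that genes of different length can be ranked. Unless stated otherwise, 3 values in a row are those of MC1, MC2 and MC3, and a mean is given with its SD (n = 3). Library totals were 38939996, 39590774 and 39613623 counts. A count of 0 allows up to 3 counts, or 0.0757 to 0.0770 CPM, and that limit covers counting error only. Across the 11212 genes at 1 FPKM or more in all 3 tumours, Pearson's r of log2(FPKM + 1) was 0.990 to 0.995 between tumours, a description across genes, which are not independent replicates. With 1 group there is nothing to test, so every statement is a level, a rank or a spread.

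Of 35434 genes in the table, 21260 had at least 1 count in MC. The other 14174 genes were at 0 counts in all 3 tumours. At the threshold of 1 FPKM in every tumour, 11212 genes (31.6%) were detected, and their median level was 10.4 FPKM. Of the protein-coding genes, 53.6% reached that threshold, against 1.79% of long noncoding RNA genes. Expression was concentrated in few genes: 598 genes had a mean of 100 FPKM or more, 56 had 1000 or more, and the 351 most abundant genes held 50% of the summed FPKM. The 20 most abundant held 12.9%, 13.3% and 13.9% of it.

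**Figure D1:**
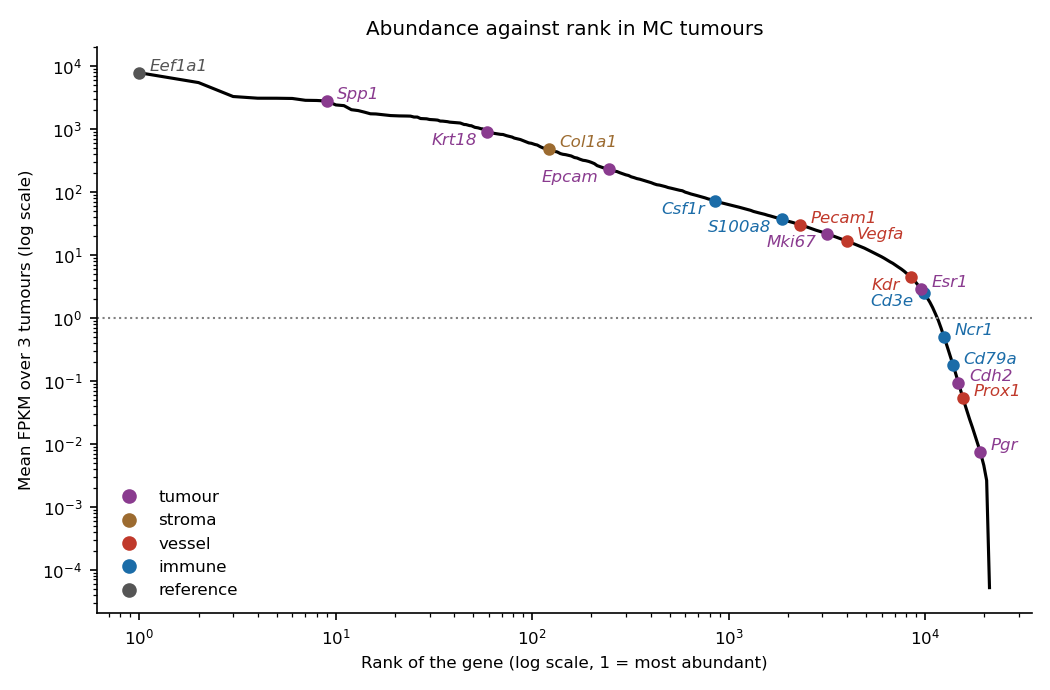
Mean FPKM over the 3 MC tumours (log axis) against the rank of the gene (log axis, 1 for the most abundant), for the 21260 genes with any count, as a black line. Coloured points mark genes of the tumour, stroma, vessel and immune lists and Eef1a1 as a reference, and the dotted line is 1 FPKM. Spp1 sits at rank 9 and Krt18 at rank 59, while Pgr lies at rank 19072.

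The most abundant transcripts were those of protein synthesis. Eef1a1, which encodes the elongation factor that brings tRNAs to the ribosome, ranked first at 7129, 7651 and 8827 FPKM. Tpt1, a growth-associated gene, ranked 3 at 2959.8, 3255 and 3679.6 FPKM. All 77 genes of the cytosolic ribosome were detected, with a median of 826 FPKM, and together they held 17.2% of the summed FPKM. The acidic stalk gene Rplp1 was the highest of them at 2673, 2851 and 3777 FPKM, highest in MC3. The 25 most abundant genes included 8 of them: Rplp1, Rpl41, Rps9, Rpl10, Rps15, Rps16, Rps26 and Rpl28. Many of these genes have processed copies elsewhere in the genome, and how reads matching several places were treated is not given in the sources used here, so their exact levels are uncertain.

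The mitochondrial genome supplied 4 of the 12 most abundant transcripts. COX1, a subunit of cytochrome oxidase, was at 5315, 5664 and 5494 FPKM. CYTB, of complex III, was at 2861, 2778 and 2919 FPKM, and the complex I genes ND1 and ND2 averaged 2362 ± 209 and 2036 ± 205 FPKM. The 13 protein-coding genes of that genome made up 1.85% to 1.88% of the counts. The rest of these genes were lower. ND4, ND5, COX2, ATP6 and COX3 averaged 787, 586, 235, 182 and 126 FPKM. ND3, ND4L, ATP8 and ND6 averaged 42.9, 27.5, 25.5 and 1.02 FPKM. Because the treatment of reads matching several places is not given, these levels and the share of counts are uncertain. Why the genes differ so much was not tested. The other most abundant genes came from varied roles. B2m, the light chain of MHC class I, was at 3087, 3114 and 3088 FPKM, its highest value 1.01 times its lowest. Lgals1, a galectin made by tumour and stroma, was at 3117, 3097 and 3001 FPKM. Spp1, the secreted phosphoprotein osteopontin, was at 2854, 2944 and 2588 FPKM. Cd74, the MHC class II chaperone, was at 1679, 1772 and 2129 FPKM, highest in MC3. Iron-storing ferritin was represented by Fth1 at 2212, 2422 and 2639 FPKM and Ftl1 at 1637, 1656 and 1933 FPKM. The chaperone gene Hsp90ab1 and the filament gene Vim closed the list of 25 with Ppia, Rack1 and Eef2, all between 1615 and 1753 FPKM on average.

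Promoter sequence, a feature the choice of libraries did not use, was described by abundance class. RefSeq promoter windows of build GRCm38.p6 (250 bases before the annotated start and 50 after) were matched by symbol for the 21141 genes of the table that have a single window. Among protein-coding genes at 0 counts, the median window held 3 CpG pairs. The median was 11 for genes at 0.1 to under 1 FPKM, 20 at 1 to under 10 FPKM and 22 at 10 to under 100 FPKM. It was 21 in the class of 1000 FPKM or more. The GC box GGGCGG, searched on both strands in the 250 bases before the start, contains a CpG pair itself. It was present in 12.8% of coding genes at 0 counts and in 65.8% of those at 10 to under 100 FPKM, against 32.4% of all single windows.

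The TATA box letters TATAAA, searched on both strands in the 50 bases before the start and not overlapping the GC box letters, had another distribution. They were found in 10.2% of coding genes at 0 counts and in 1.62% of those at 10 to under 100 FPKM. In the class of 1000 FPKM or more they were found in 4 of 33 genes (12.1%), namely Vim, Ppia, Eef2 and H2-D1. Over all 21141 genes, not coding genes alone, the share was 3.93%, with 5.55% at 0 counts and 1.70% at 10 to under 100 FPKM. Annotated starts are not measured starts, and a match is only a match of letters. The 100 bases before the start are shown for 3 of those abundant genes, for 3 abundant genes without the letters, for Csn2, a milk protein gene at 0 counts, and for Myh4, a fast-muscle myosin gene with 841, 295 and 30 counts. Each runs 5′ to 3′ on the gene's strand, from RefSeq, build GRCm38.p6, with TATAAA in capitals.
Vim (chr2:13574211-13574310, plus strand): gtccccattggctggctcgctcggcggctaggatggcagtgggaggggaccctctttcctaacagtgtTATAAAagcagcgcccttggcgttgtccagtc
Ppia (chr11:6415767-6415866, plus strand): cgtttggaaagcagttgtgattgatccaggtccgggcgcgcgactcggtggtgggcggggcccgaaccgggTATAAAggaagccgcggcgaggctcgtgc
Eef2 (chr10:81176531-81176630, plus strand): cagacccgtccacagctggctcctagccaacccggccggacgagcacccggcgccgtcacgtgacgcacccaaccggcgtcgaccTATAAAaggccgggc
Eef1a1 (chr9:78481725-78481824, minus strand): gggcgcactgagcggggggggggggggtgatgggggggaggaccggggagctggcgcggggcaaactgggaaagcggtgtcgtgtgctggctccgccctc
Tpt1 (chr14:75845156-75845255, plus strand): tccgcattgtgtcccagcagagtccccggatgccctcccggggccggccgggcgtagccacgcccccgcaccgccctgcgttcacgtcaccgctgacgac
Krt18 (chr15:102028116-102028215, plus strand): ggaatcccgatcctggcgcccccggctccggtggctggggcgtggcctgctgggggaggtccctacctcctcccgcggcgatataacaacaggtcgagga
Csn2 (chr5:87699426-87699525, minus strand): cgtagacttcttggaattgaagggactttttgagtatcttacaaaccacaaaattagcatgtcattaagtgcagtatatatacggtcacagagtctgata
Myh4 (chr11:67237712-67237811, plus strand): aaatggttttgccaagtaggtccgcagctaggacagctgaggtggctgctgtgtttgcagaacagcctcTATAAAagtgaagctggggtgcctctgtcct

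The first T of the capitals lies 32 bases before the start in Vim, 29 in Ppia, 15 in Eef2 and 31 in Myh4. The full windows of Tpt1 and Ppia hold 40 and 43 CpG pairs, whereas those of Csn2 and Myh4 hold 2 and 1.

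Epithelial genes were expressed at high level. Of 28 keratin and junction genes, 27 were detected in all 3 tumours, where 31.6% of all genes and 53.6% of protein-coding genes were. Their median was 40.5 FPKM, above 92.1% of the genes with any count. The simple-epithelium filament pair led the list: Krt18 stood at 845, 871 and 946 FPKM and its partner Krt8 at 642, 596 and 608 FPKM. Krt7, another simple keratin, was at 378, 368 and 317 FPKM. The tight-junction claudin Cldn4 was at 248, 301 and 339.6 FPKM, and it was 111 to 204 times as high as Cldn7 within each tumour. Epcam, the epithelial adhesion molecule, was at 214, 222 and 258 FPKM. Cdh1, which encodes E-cadherin, was at 92.7, 95.5 and 76.8 FPKM, lowest in MC3. The splicing regulator Esrp1 and the epithelial transcription factor Grhl2 averaged 20.1 ± 1.40 and 8.21 ± 0.238 FPKM. Of the list, Krt20 missed the threshold, at 0.409, 0.674 and 0.972 FPKM.

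Basal markers were uneven. Of 16 genes, 9 (56.25%) were detected, where 53.6% of protein-coding genes were. Krt14, a basal keratin, was at 94.1, 76.6 and 79.2 FPKM. Itgb4, the integrin of hemidesmosomes, was at 70.4, 66.1 and 67.6 FPKM. By contrast Krt5, the usual filament partner of Krt14, was at 0.967, 0.607 and 0.366 FPKM and the basal regulator Trp63 at 1.04, 0.908 and 1.13 FPKM. Krt6a and the oxytocin receptor gene Oxtr, a myoepithelial marker, were under 0.1 FPKM in every tumour.

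Luminal and milk genes were mostly under the threshold, as were most genes measured. Of 15 genes, 5 (33.3%) were detected, where 31.6% of all genes and 53.6% of protein-coding genes were. The caseins Csn1s1 and Csn2, the whey protein gene Wap and Tff1 had 0 counts in all 3 tumours. Xdh, which encodes xanthine oxidoreductase and also works outside milk secretion, was the highest at 47.5, 55.8 and 34.4 FPKM. Gata3, the transcription factor that specifies luminal cells, was at 20.9, 23.8 and 25.6 FPKM. Its usual companions Foxa1 and Elf5 were at 0.385, 0.275 and 0.933 FPKM and 0.0659, 0.0216 and 0 FPKM.

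The receptor genes that define the triple-negative class were not all silent. Pgr, the progesterone receptor, had 14, 6 and 4 counts, equal to 0.0131, 0.00554 and 0.00369 FPKM. Esr1, the estrogen receptor, was above the threshold at 2.83, 3.06 and 2.80 FPKM, from 965, 1062 and 973 counts. Erbb2, which encodes HER2, was the highest receptor of the list at 18.03, 19.5 and 21.2 FPKM, rank 3463. Its partner Erbb3 averaged 4.75 ± 0.431 FPKM, Egfr was at 1.54, 1.48 and 0.987 FPKM, and Erbb4 had 0 counts in all 3 tumours. These are RNA levels of whole tumours, and which cells held the Esr1 and Erbb2 transcripts was not measured.

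Genes listed as mesenchymal were read in the same whole tumours as the epithelial ones. Vim was at 1693, 1825 and 1328 FPKM, 1.40 to 2.09 times Krt18, lowest in MC3. Fn1, the matrix protein fibronectin, was at 1109, 1122 and 1182 FPKM, and S100a4 was at 414, 344 and 263 FPKM. Among the transcription factors of epithelial-to-mesenchymal transition, Twist1 and Snai1 averaged 27.8 ± 1.26 and 22.8 ± 1.67 FPKM. Zeb1 was under the threshold at 0.458, 0.486 and 0.439 FPKM, while Zeb2, which leukocytes and endothelium also express, was 14.3 to 17.4 times as high as Zeb1. Cdh2, which encodes the mesenchymal N-cadherin, was at 0.0928, 0.0963 and 0.0887 FPKM. Cadherin levels thus lay far apart, with Cdh1 at 88.4 FPKM and Cdh2 at 0.0926 FPKM on average. In all, 15 of 18 genes of this list were detected, with a median of 29.9 FPKM. Fn1 is also a member of the monocyte list. Which cells held the Vim, Fn1, S100a4, Twist1 and Snai1 transcripts was not measured, so a state of the carcinoma cells cannot be read from them.

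**Figure D2:**
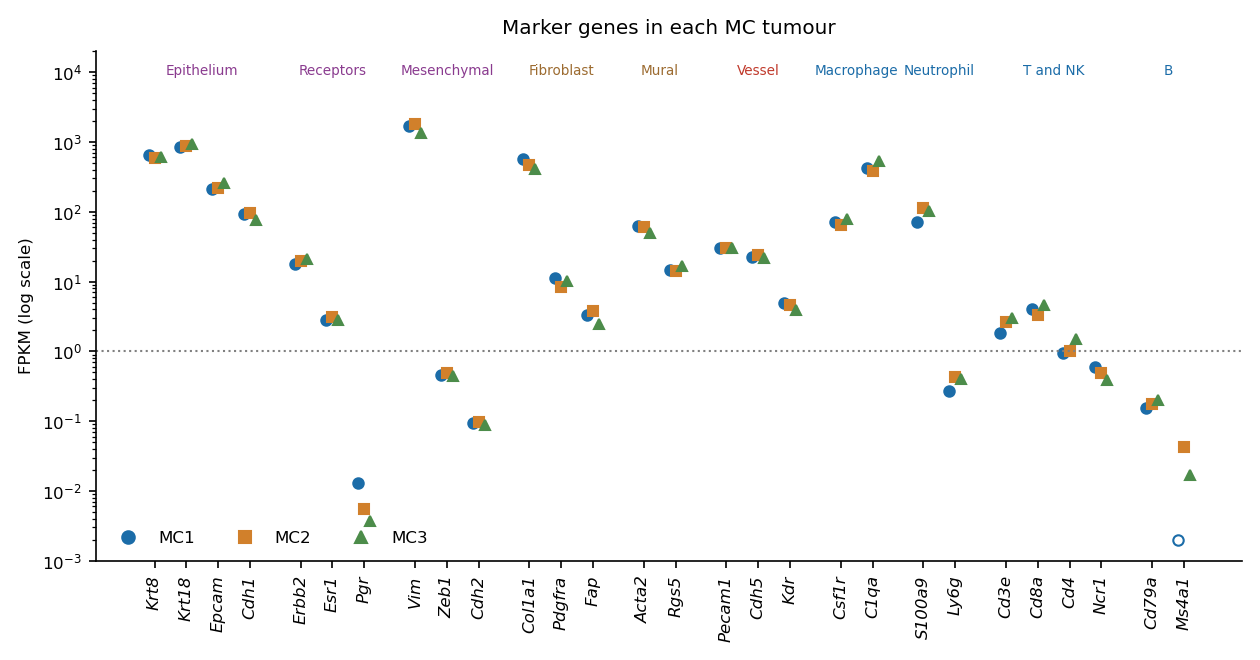
FPKM (log axis) of marker genes in MC1 (circles), MC2 (squares) and MC3 (triangles), grouped by the cell type or programme they mark. The open circle is a value of 0 drawn at 0.002, and the dotted line is 1 FPKM. Krt8, Krt18 and Vim lie above 500 FPKM in each tumour, while Zeb1, Cdh2, Pgr, Ly6g, Ncr1, Cd79a and Ms4a1 lie under 1 FPKM.

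Growth-control genes were led by the D-type cyclin Ccnd1 at 388, 396 and 289 FPKM, 27.7 to 38.7 times Ccnd2. Myc was at 96.7, 78.7 and 99.4 FPKM and Stat3 at 62.7, 63.1 and 64.2 FPKM. Mycn and Mycl, the other Myc family members, were at 0.178, 0.234 and 0.0292 FPKM and 0.659, 0.570 and 0.952 FPKM. Nras and Hras transcripts were at 42.7 ± 2.33 and 36.04 ± 1.35 FPKM. Trp53 RNA was present at 25.4, 24.7 and 25.96 FPKM, which says nothing of the protein. The p53 target Cdkn1a was at 17.8, 19.7 and 15.8 FPKM. Cdkn2a, which encodes the inhibitor p16 and the p53 regulator ARF, was at 0.158, 0.623 and 0.267 FPKM, from 7, 28 and 12 counts. The tumour suppressors Rb1 and Nf1 averaged 4.94 ± 0.898 and 3.08 ± 0.0929 FPKM, and the repair genes Brca1 and Brca2 averaged 3.62 ± 0.608 and 1.84 ± 0.276 FPKM. Altogether 28 of 31 genes were detected.

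All 32 genes of cell division were detected, with a median of 33.1 FPKM. Pcna, the clamp of DNA replication, was the highest at 159, 158 and 131 FPKM. Top2a, a topoisomerase of dividing cells, was at 85.3, 87.6 and 55.8 FPKM and Mki67 at 24.6, 24.97 and 15.7 FPKM. All 32 were lowest in MC3, where 40.5% of all detected genes were lowest. The list's median was 34.9, 35.3 and 26.6 FPKM, nearly equal in MC1 and MC2.

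The secreted factors associated with 4T1 were read at very different levels. Spp1 stood far above the others. Lcn2, a siderophore-binding protein of epithelium and neutrophils, was at 333, 506 and 691 FPKM, its highest value 2.07 times its lowest. The gelatinase Mmp9 was at 204, 306 and 159 FPKM, highest in MC2. Among colony-stimulating factors, Csf1 was at 39.3, 33.9 and 28.9 FPKM, Csf3 was at 15.9, 20.7 and 14.5 FPKM, and Csf2 had 76, 62 and 25 counts. Neutrophil-attracting Cxcl1 and Cxcl5 averaged 9.32 ± 0.294 and 4.27 ± 0.612 FPKM. Il1b was at 28.2, 36.1 and 32.4 FPKM, whereas Il6 and Tnf were at 1.24, 0.797 and 0.265 FPKM and 0.684, 0.902 and 0.932 FPKM. Pthlh, the parathyroid hormone-related peptide linked to bone metastasis, was at 14.6, 9.68 and 8.20 FPKM. The Wnt ligand Wnt7b was at 55.99, 58.5 and 51.9 FPKM.

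**Figure D3:**
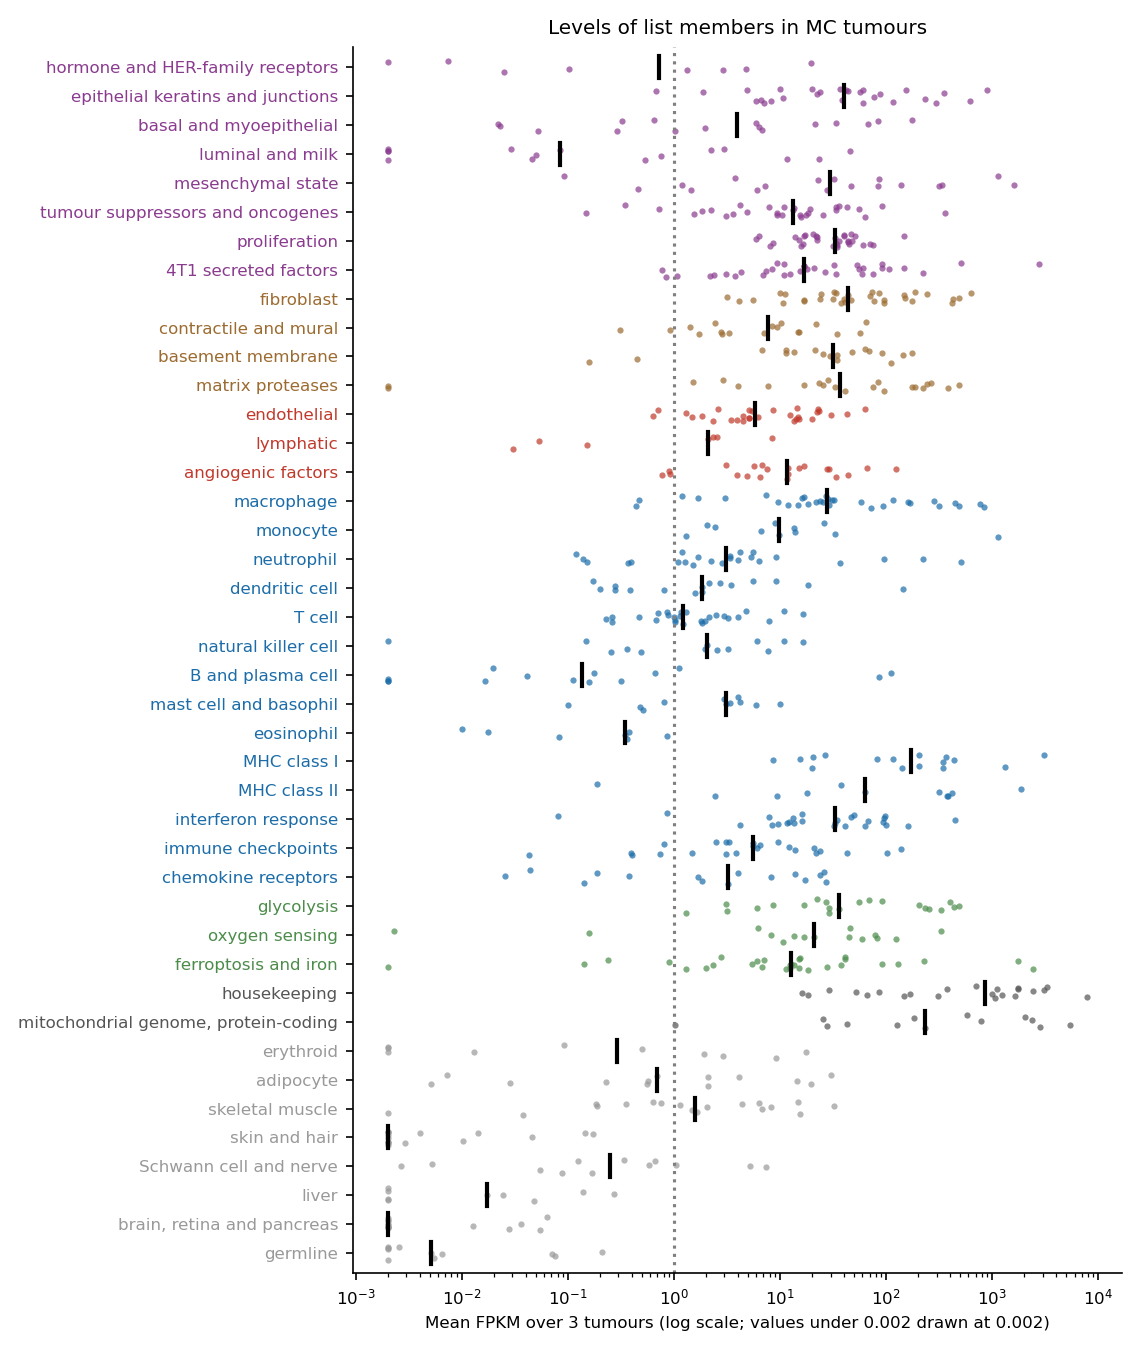
Each point is a gene of the named list at its mean FPKM over the 3 MC tumours (log axis, values under 0.002 drawn at 0.002), and the black bar is the list's median. Colours separate tumour, stroma, vessel, immune, metabolism, reference and other-tissue lists, and the dotted line is 1 FPKM. Among the immune lists the MHC class I median (172 FPKM) is highest and that of B and plasma cells (0.136 FPKM) lowest.

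Fibroblast and matrix genes were all detected (33 of 33), with a median of 43.6 FPKM. Sparc, a collagen-binding matrix protein, was at 694, 638 and 585 FPKM. The fibrillar collagens followed, Col1a1 at 568, 470.4 and 412 FPKM, Col1a2 at 500.1, 414 and 359.8 FPKM and Col3a1 at 565, 394 and 292 FPKM. All 3 collagens were highest in MC1 and lowest in MC3. The chains Col1a1 and Col1a2, which assemble together, had nearly equal levels, Col1a1 being 1.14 times Col1a2. Surface markers were lower. Thy1 averaged 74.2 ± 5.02 FPKM, Pdgfra was at 11.1, 8.45 and 10.3 FPKM, and Fap, the fibroblast activation protein, was at 3.27, 3.76 and 2.49 FPKM. Of 44 collagen chain genes in the table, 19 (43.2%) were detected, where 53.6% of protein-coding genes were, and 4 averaged 100 FPKM or more.

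Other fibroblast genes ranged widely in how much they varied between tumours. Pi16 and Dpt are among the 15 most variable genes and are named for that. Pi16, a marker of adventitial fibroblasts, was at 17.2, 11.1 and 4.12 FPKM and Dpt, which encodes dermatopontin, at 18.03, 9.70 and 5.60 FPKM. The small proteoglycan gene Dcn was at 65.4, 37.8 and 27.5 FPKM. The highest value was 1.56 times the lowest for the microfibril gene Mfap5 and 1.14 times for Thy1, against 1.93 times for Col3a1. In Pi16, Dpt and Dcn MC1 was highest and MC3 lowest. Of the fibroblast list, 30 of 33 genes were lowest in MC3, where 40.5% of all detected genes were lowest.

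Basement membrane genes had a median of 31.9 FPKM, with 16 of 18 detected. The collagen IV chains Col4a1 and Col4a2 averaged 144 ± 4.97 and 90.9 ± 3.54 FPKM. Laminin chains found in most basement membranes, Lamb1 and Lamc1, averaged 112 ± 8.98 and 68.8 ± 5.79 FPKM. The embryonic chain Lama1 and the muscle chain Lama2 were under 1 FPKM in every tumour. Of the matrix proteases and their inhibitors, the lysosomal cathepsin genes Ctsd, Ctss, Ctsl and Ctsb led at 486 ± 20.5, 387 ± 29.7, 264 ± 7.08 and 245 ± 19.7 FPKM. Collagenase Mmp13 was at 76.4, 97.2 and 78.5 FPKM, and Mmp14, the membrane-bound activator of Mmp2, was at 188, 192 and 181 FPKM. Mmp7 and the inhibitor Timp4 had 0 counts in all 3 tumours. Mmp9 RNA was 1.80 to 3.33 times as high as that of Timp1, an inhibitor of its protein.

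Contractile and mural genes were at a lower level, with a median of 7.70 FPKM and 16 of 18 detected. Tagln and Acta2, contractile genes of smooth muscle, pericytes and activated fibroblasts, were at 67.96, 69.8 and 57.1 FPKM and 62.7, 60.6 and 49.3 FPKM. The pericyte genes Rgs5 and Pdgfrb averaged 15.02 ± 1.48 and 14.8 ± 1.65 FPKM. Smooth-muscle myosin Myh11 was at 1.27, 0.972 and 0.503 FPKM and Lmod1 at 0.254, 0.372 and 0.314 FPKM, both close to or under the threshold.

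Vessel genes were detected in nearly full number at modest level. Of 30 endothelial genes, 28 were detected, with a median of 5.85 FPKM, above 64.1% of genes with any count. Eng, the TGF-beta co-receptor endoglin, was the highest at 60.1, 65.7 and 64.9 FPKM, followed by Plvap, which forms the diaphragms of permeable vessels, at 46.2, 43.4 and 37.8 FPKM. Pecam1 was at 30.2, 30.4 and 30.2 FPKM, the same to within 0.3 FPKM in the 3 tumours. Cdh5, the cadherin of endothelial junctions, was at 22.7, 24.2 and 21.97 FPKM. Kdr and Flt1, receptors of VEGF-A, averaged 4.50 ± 0.566 and 5.14 ± 1.05 FPKM, and Tek, the angiopoietin receptor, averaged 1.48 ± 0.256 FPKM. The tip-cell genes Apln and Esm1 averaged 23.6 ± 2.87 and 5.14 ± 1.47 FPKM. Vwf, a clotting factor gene of larger vessels, was at 1.96, 1.38 and 2.22 FPKM, and the venule marker Ackr1 was under 1 FPKM in every tumour.

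Lymphatic markers were sparse. Prox1, which specifies lymphatic endothelium, was at 0.0896, 0.0382 and 0.0323 FPKM from 30, 13 and 11 counts, and Reln was under 0.1 FPKM in every tumour. Ccl21a, a chemokine of lymphatic vessels and lymph nodes, was at 6.80, 0.436 and 0.436 FPKM, high in MC1 alone. Lyve1, shared with some macrophages, was at 3.36, 1.80 and 1.08 FPKM. Pdpn, the highest at 9.72, 9.16 and 6.49 FPKM, is shared with fibroblasts and tumour cells.

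The angiogenic factor list had a median of 11.6 FPKM. Among its inhibitors of vessel growth, Thbs1 averaged 124 ± 9.68 FPKM and Thbs2 66.1 ± 8.45 FPKM, the highest of the list, and Vash1 averaged 3.95 ± 0.277 FPKM. Of the VEGF ligands, Vegfb was at 30.3, 35.5 and 35.3 FPKM and Vegfa at 15.2, 22.3 and 12.9 FPKM, highest in MC2. Vegfb was 1.59 to 2.74 times as high as Vegfa. Vegfc was at 10.9, 13.2 and 11.4 FPKM and Pgf at 9.13, 13.7 and 12.5 FPKM. Angpt2, which destabilizes vessels, averaged 5.73 ± 0.514 FPKM, and Angpt1, which stabilizes them, averaged 0.909 ± 0.0441 FPKM.

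Macrophage genes were the most abundant of the leukocyte lists. Of 32 genes, 30 were detected, with a median of 27.8 FPKM and 9 genes at 100 FPKM or more. Lyz2, the lysozyme of myeloid cells, was at 824, 755 and 963 FPKM. Apoe, the lipid carrier, was at 673, 615 and 1012 FPKM, highest in MC3. The complement genes C1qa, C1qb and C1qc averaged 449 ± 81.8, 286 ± 51.4 and 316 ± 48.3 FPKM. Csf1r, the receptor that macrophages need to survive, was at 71.5, 65.01 and 80.01 FPKM and Adgre1, which encodes F4/80, at 18.3, 13.1 and 16.8 FPKM. Arg1 was at 137, 220.4 and 122 FPKM and was 8.17 to 12.7 times as high as Nos2, whose enzyme competes for the same arginine. Both Arg1 and Nos2 were highest in MC2. The scavenger receptor Cd163 was at 5.33, 2.63 and 1.13 FPKM, high in MC1, and Vsig4 and Chil3 stayed under 1 FPKM in every tumour. Monocyte genes had a median of 9.90 FPKM. The classical monocyte genes Ccr2 and Ly6c2 were at 17.8, 12.4 and 11.9 FPKM and 10.4, 3.36 and 6.36 FPKM. Ly6c2 has a close relative in Ly6c1, so its level is uncertain.

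Neutrophil genes were spread over a wide range of levels. Lcn2 and Mmp9 led, but tumour cells and macrophages can express both. The calprotectin genes S100a9 and S100a8 were at 70.6, 115 and 101 FPKM and 31.3, 41.2 and 38.9 FPKM. The receptor genes Csf3r and Cxcr2 averaged 6.37 ± 0.333 and 1.70 ± 0.186 FPKM. Retnlg, Clec4d, Il1r2 and Trem1 were at intermediate levels, 9.21, 5.55, 5.30 and 3.41 FPKM on average. Ly6g, the surface marker of mouse neutrophils, was at 0.274, 0.432 and 0.405 FPKM from 10, 16 and 15 counts. Granule genes of immature cells were uneven: Elane, Mpo and Ctsg were under 0.3 FPKM in every tumour, whereas Prtn3, Ngp, Ltf and Camp averaged 1.09 ± 0.291, 4.06 ± 0.864, 2.24 ± 0.767 and 1.19 ± 0.314 FPKM. The list's median was 3.10 FPKM, and 16 of 24 genes (66.7%) were detected, where 53.6% of protein-coding genes were.

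Dendritic-cell genes had a median of 1.85 FPKM. Fscn1, which encodes an actin-bundling protein that carcinoma cells also make, stood apart at 138, 143 and 151 FPKM. The subset markers Xcr1, Clec9a, Cd209a, Siglech and Flt3 were under 1 FPKM in every tumour. Of 11 mast-cell and basophil genes, 7 (63.6%) were detected, where 53.6% of protein-coding genes were, and the median was 3.08 FPKM. The proteases Tpsb2, Mcpt4 and Mcpt8 averaged 9.93 ± 3.52, 5.91 ± 1.19 and 4.17 ± 0.732 FPKM, while the IgE receptor genes Fcer1a and Ms4a2 averaged 0.509 ± 0.0522 and 0.0999 ± 0.0494 FPKM. Eosinophil genes were undetected at 1 FPKM (0 of 7), the peroxidase gene Epx having 0, 3 and 1 counts.

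Lymphocyte genes lay near the threshold. Of 27 T-cell genes, 15 (55.6%) were detected, where 53.6% of protein-coding genes were, and the median was 1.21 FPKM. Of the CD3 chains of the T-cell receptor complex, Cd3e was at 1.85, 2.60 and 3.05 FPKM and Cd3g at 6.78, 7.51 and 9.33 FPKM, both lowest in MC1. Cd8a was at 4.06, 3.33 and 4.62 FPKM and Cd4 at 0.940, 1.03 and 1.49 FPKM, a ratio of 3.10 to 4.32. Cd68 was 19.7 to 32.9 times as high as Cd3e. Foxp3, the regulator of regulatory T cells, was at 0.294, 0.174 and 0.225 FPKM from 45, 27 and 35 counts. Among cytotoxic granule genes, Gzmb was at 19.6, 19.2 and 11.2 FPKM, Gzma at 11.3, 13.8 and 7.42 FPKM and Prf1 at 3.41, 3.14 and 3.20 FPKM. Ifng was under 1 FPKM in every tumour. Natural killer cells share the granule genes. Their defining receptor Ncr1 was at 0.602, 0.491 and 0.389 FPKM, and Klra8, which encodes the receptor Ly49H known from C57BL/6 and not from BALB/c mice, had 0 counts.

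Most B-cell genes that were measured were close to absent at this depth. The immunoglobulin genes Ighm, Igkc, Ighg1 and Ighg2c were not among the genes measured, so their levels are not known. Ms4a1, which encodes CD20, had 0, 5 and 2 counts, and Cr2 and the plasma-cell receptor gene Tnfrsf17 had 0 in all 3 tumours. Jchain, the joining chain of secreted antibody, was at 0.496, 2.03 and 0.826 FPKM, highest in MC2. The list's detected genes (2 of 14) were Sdc1 at 111 and Xbp1 at 86.6 FPKM, which epithelial cells also express.

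Antigen-presentation genes were among the most abundant. All 16 class I genes were detected, with a median of 172 FPKM, above 98.5% of genes with any count. H2-D1, a classical heavy chain, was at 1299.8, 1377 and 1343 FPKM and H2-K1, the other, at 328, 373 and 344 FPKM. The immunoproteasome gene Psmb8 averaged 348 ± 11.7 FPKM and the peptide transporter Tap1 115 ± 5.46 FPKM. Class II genes had a median of 63.1 FPKM. H2-Aa was at 386, 395 and 471 FPKM, H2-Ab1 at 365, 356 and 413 FPKM and H2-Eb1 at 293, 312 and 343 FPKM. Ciita, their master regulator, averaged 9.44 ± 0.701 FPKM, and H2-Ob, a B-cell-linked chain, was under 1 FPKM in every tumour. BALB/c mice carry another MHC haplotype than the C57BL/6 reference genome, and its effect on these counts was not tested.

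Interferon-response genes were expressed, while interferon genes were hardly read. Of 26 genes, 24 were detected, with a median of 32.8 FPKM. Bst2, which tethers virus particles to the cell, was at 435, 452 and 442 FPKM. Isg15, a ubiquitin-like protein gene, averaged 93.9 ± 3.22 FPKM. The T-cell-attracting chemokines Cxcl10 and Cxcl9 were at 65.3, 46.5 and 36.8 FPKM and 46.1, 43.7 and 32.3 FPKM, lowest in MC3. Ifnb1 had 1, 7 and 0 counts, and 13 of 17 type I interferon genes had 0.

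The highest genes of the checkpoint list encode an enzyme and ligands. Nt5e, which encodes the adenosine-producing enzyme CD73, led the list at 155, 146 and 113 FPKM, followed by the galectin gene Lgals9 at 106, 98.1 and 104 FPKM. Cd276, a B7-family member, was at 42.7, 43.2 and 43.5 FPKM. Cd274, which encodes PD-L1, was at 11.99, 13.9 and 10.5 FPKM, and its receptor gene Pdcd1 was at 3.12, 2.60 and 3.55 FPKM. Some receptor genes were above Cd274: Sirpa and Tnfrsf9 averaged 20.8 ± 1.11 and 13.8 ± 1.45 FPKM, and Vsir averaged 24.1 ± 2.96 FPKM. Tigit and Lag3 averaged 6.54 ± 1.25 and 3.86 ± 0.958 FPKM, and Ctla4 was at 0.385, 0.461 and 0.343 FPKM. Vtcn1 stayed under 0.1 FPKM in every tumour. In all, 19 of 24 checkpoint genes were detected. Chemokine receptors of myeloid cells led theirs, with Cx3cr1 and Ccr1 at 26.9 ± 6.22 and 25.9 ± 1.79 FPKM, and Cxcr5, Cxcr1, Ccr9 and Ccr6 were under 0.3 FPKM in every tumour.

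Ligand and receptor levels were set side by side for 28 known pairs. The ligand was higher in all 3 tumours for 19 pairs and the receptor in all 3 for 8, and 1 pair, Cd47 with Sirpa, differed in order between tumours. Spp1 was 30.1 to 37.1 times as high as its receptor gene Cd44. Hbegf and Areg, ligands of the EGF receptor, were 29.3 to 42.4 and 6.62 to 11.1 times as high as Egfr. Kitl, the stem cell factor, was at 21.6, 18.5 and 19.6 FPKM and its receptor gene Kit at 3.09, 2.79 and 3.01 FPKM, and Il33 was 13.3 to 16.1 times as high as its receptor gene Il1rl1. Vegfa was 3.04 to 4.83 times as high as Kdr.

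In the opposite order, the receptor tyrosine kinase gene Axl was 6.01 to 12.1 times as high as its ligand gene Gas6, Axl being at 133, 120.4 and 136 FPKM. Met was 8.53 to 11.4 times as high as Hgf. Csf1r was 1.82 to 2.76 times as high as Csf1, whereas Csf3 was 2.14 to 3.36 times as high as Csf3r. Il6ra was 6.43 to 30.1 times as high as Il6. These ratios compare transcripts per length in a whole tumour and not the proteins that meet on a cell.

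**Figure D4:**
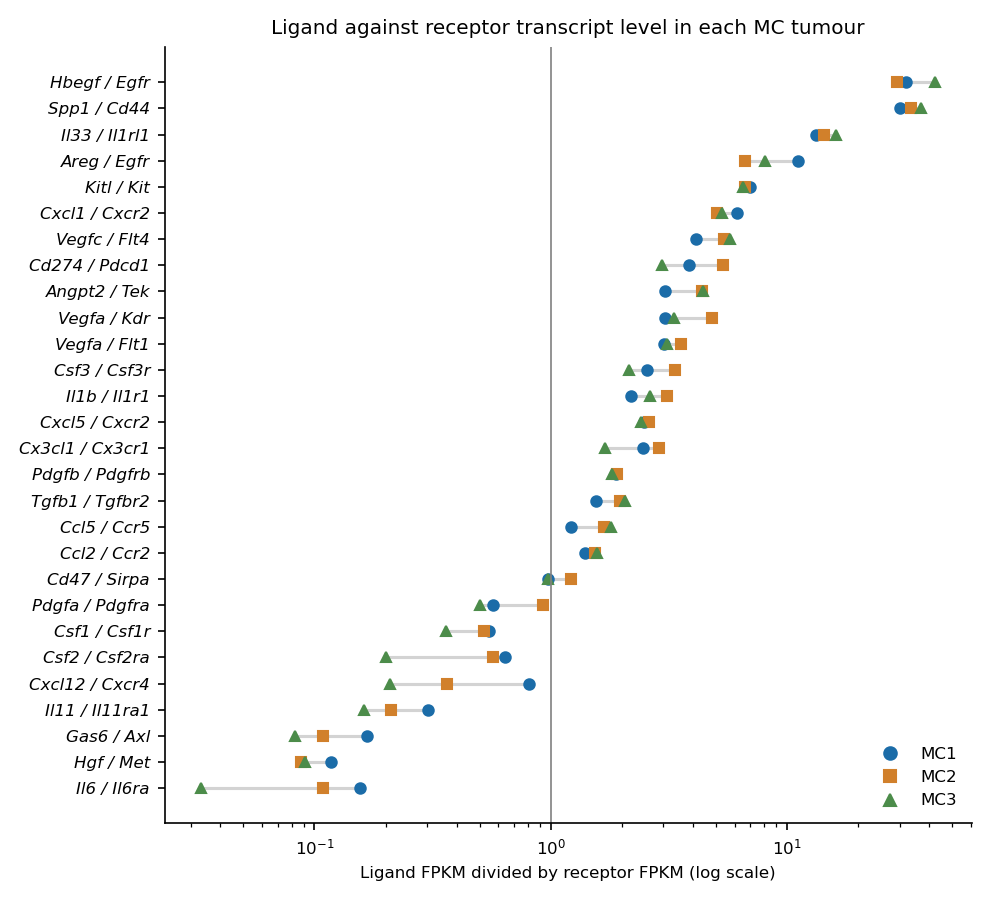
Ligand FPKM divided by receptor FPKM (log axis) for 28 pairs in MC1 (circles), MC2 (squares) and MC3 (triangles), ordered by the ratio of the means, with a vertical line at 1. Hbegf over Egfr and Spp1 over Cd44 lie farthest to the right, at 29.3 to 42.4 and 30.1 to 37.1, and the widest spread between tumours among ratios below 1 is that of Il6 over Il6ra.

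Glycolysis genes were high. Of 21 genes, 20 were detected, with a median of 35.98 FPKM. The enzyme genes Eno1, Pgk1 and Tpi1 averaged 485 ± 14.8, 440.3 ± 21.7 and 399 ± 13.1 FPKM. Pkm, the pyruvate kinase, was at 334, 344 and 318 FPKM. Ldha, which makes lactate, was at 207, 211 and 199 FPKM, 30.1 to 35.7 times Ldhb. The glucose transporter gene Slc2a1 was at 60.2, 82.6 and 65.4 FPKM. Gapdh was read at 29.00, 30.4 and 27.7 FPKM, and Eno1 was 16.2 to 17.6 times as high. Aldoa was at 3.51, 2.97 and 2.89 FPKM, and Pgk1 was 126 to 156 times as high. Both genes have near-identical copies elsewhere in the mouse genome, which makes these levels uncertain.

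Oxygen-sensing genes included targets of hypoxia-inducible factor at high level. Ndrg1, a stress-induced gene, was at 262, 362 and 363 FPKM, Ddit4, a brake on mTOR, averaged 123 ± 9.17 FPKM, and Bnip3, a mitophagy receptor gene, averaged 81.6 ± 6.56 FPKM. The acid-handling enzyme Car9 was at 47.8, 48.7 and 42.2 FPKM. Hif1a was 9.32 to 10.3 times as high as Epas1, its relative prominent in endothelium. Of the prolyl hydroxylases that mark these factors for destruction, Egln3 was at 64.97, 83.3 and 89.3 FPKM, Egln1 at 42.02, 47.7 and 44.7 FPKM and Egln2 at 20.4, 18.9 and 23.8 FPKM. Egln1 was 1.87 to 2.52 times as high as Egln2. Hif3a had 0, 1 and 1 counts.

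Ferroptosis is an iron-dependent death through oxidized lipids, and its genes are a subject of the series. Gpx4, the enzyme that repairs lipid peroxides, was at 196, 233 and 251 FPKM. Acsl4, which supplies the oxidizable lipids, was at 97.8, 91.6 and 83.1 FPKM. Slc7a11, the cystine importer, was at 5.29, 2.90 and 8.15 FPKM, lowest in MC2, and its partner Slc3a2 was at 17.2, 15.7 and 22.6 FPKM. Fth1 was 1.35 to 1.46 times as high as Ftl1. The iron importer gene Tfrc was at 16.4, 17.9 and 10.7 FPKM and the exporter gene Slc40a1 at 2.13, 1.28 and 2.60 FPKM. The lipoxygenase genes Alox12 and Alox15 were under 0.4 FPKM in every tumour, and Hamp, which encodes the iron hormone of liver, had 0 counts.

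Genes typical of skeletal muscle and fat differed in level between tumours, and whether their transcripts came from neighbouring tissue was not tested. Of 18 skeletal muscle genes, 7 (38.9%) were detected, where 31.6% of all genes and 53.6% of protein-coding genes were. The summed level of the 18 was 171, 79.7 and 39.1 FPKM. Acta1, the actin of skeletal muscle, was at 61.8, 25.9 and 8.42 FPKM, and Ckm, the muscle creatine kinase, at 17.6, 6.02 and 1.28 FPKM. All 7 detected muscle genes were highest in MC1 and lowest in MC3, where 36.02% of all detected genes were highest in MC1 and 40.5% lowest in MC3. The slow-muscle myosin Myh7 had 1, 0 and 0 counts. Adipocyte genes summed to 95.95, 53.2 and 76.05 FPKM. Fabp4, which capillaries also express, was at 32.5, 24.5 and 34.8 FPKM, the fat-cell hormone Adipoq was at 2.81, 1.41 and 2.03 FPKM, and leptin (Lep) had 5, 1 and 5 counts. Globin genes were low, with Hbb-bs at 18.1, 17.7 and 16.99 FPKM, Hbb-bt at 3.59, 3.01 and 2.20 FPKM, Hba-a1 at 9.05, 9.22 and 9.12 FPKM and Hba-a2 at 1.94 ± 0.796 FPKM on average. Hbb-bs and Hba-a1 were nearly equal between tumours, whereas the highest value of Hba-a2 was 2.46 times its lowest. Hba-a1 and Hba-a2 are near-identical copies, so the split between them is uncertain.

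Genes of the overlying skin and of distant organs were hardly read. None of the skin and hair, liver, brain, retina and pancreas, or germline list genes reached 1 FPKM in all 3 tumours. The insulin genes Ins1 and Ins2, the synaptic gene Snap25 and the hair keratins Krt25, Krt27 and Krt71 had 0 counts, and the summed skin list was 0.572, 0.260 and 0.353 FPKM. Large sensory families made up part of the undetected genes: 1084 of 1109 olfactory receptor genes and 340 of 351 vomeronasal receptor genes had 0 counts. So did 54 of 56 genes of keratin-associated proteins, which build the hair shaft. Predicted genes with a Gm number formed the largest block, 8391 at 0 counts of 12319. Of protein-coding genes, 4019 of 20222 (19.9%) had 0 counts.

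The 3 tumours were alike for most genes. Of 5752 genes with a mean of 10 FPKM or more, 215 (3.74%) differed over 1.5-fold between the highest and the lowest tumour and 29 (0.504%) over 2-fold, and the median ratio was 1.14. Summed FPKM was 430719 in MC3, above 404185 in MC1 and 407011 in MC2. Of the 15 genes with the largest ratios, 11 were highest in MC1 and 4 in MC2.

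Acta1 had the largest ratio, 7.34. Serpina3n, an acute-phase protease inhibitor gene, followed at 20.9, 9.71 and 4.13 FPKM. Genes of connective tissue formed the next group: Pi16 with a ratio of 4.18, Dpt with 3.22, the Wnt-binding Sfrp2 with 3.02 and Eln, which encodes elastin, with 2.95. All of these were highest in MC1 and lowest in MC3. A different set was highest in MC2: Nos2 with a ratio of 2.82, the lipase gene Lipg with 2.79, the retinol receptor gene Stra6 with 2.65 and the mast-cell protease gene Mcpt1 with 2.66. Mcpt1 is not a member of the mast-cell and basophil list, which mostly had another order. Of its 7 detected genes, 5 were lowest in MC2 and 2 highest there, where 31.8% of all detected genes were lowest in MC2. The cytokine gene Il24 was at 15.2, 14.7 and 5.80 FPKM, and the X-linked homeobox gene Rhox5 at 24.4, 9.07 and 16.3 FPKM, lowest in MC2. The muscle troponin gene Tnni2, the fat and muscle enzyme gene Car3 and the hemoglobin scavenger gene Hp completed the 15, with ratios of 2.49, 2.44 and 2.43.

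List scores, the mean log2(FPKM + 1) of a list's members, placed these differences on 1 scale. Relative to their mean over the 3 tumours, skeletal muscle scores were 0.65, -0.04 and -0.61, fibroblast scores 0.25, 0.06 and -0.31 and proliferation scores 0.15, 0.16 and -0.30. Muscle and fibroblast genes were thus high in MC1 together, and the part of adjoining tissue in the fibroblast values was not tested. Endothelial and T-cell scores were nearly equal in the 3 tumours, within 0.03 of their means. Single T-cell genes did differ: of 15 detected members, 3 were lowest in MC1, 6 in MC2 and 6 in MC3. Cd3e, for example, was lowest in MC1, and Gzma and Gzmb were lowest in MC3. Glycolysis scores (-0.06, 0.08 and -0.02) and MHC class I scores (-0.03, 0.06 and -0.04) were highest in MC2. Over all detected genes the same score was 0.0167, -0.00687 and -0.00985.

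**Figure D5:**
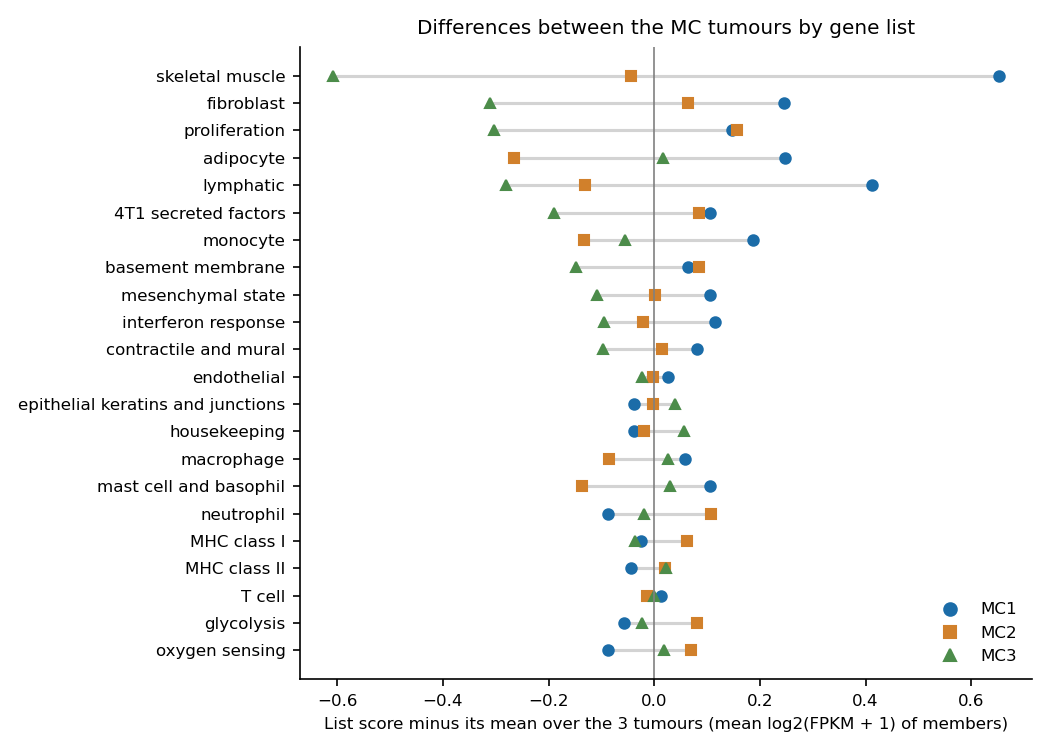
Score of selected gene lists (mean log2(FPKM + 1) of the members) in MC1 (circles), MC2 (squares) and MC3 (triangles), minus the mean over the 3 tumours, with the grey line joining them. Skeletal muscle has the widest spread, 0.65, -0.04 and -0.61, while endothelial and T-cell list scores lie within 0.03 of their means.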

How the data were processed

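RNA of whole tumours was sequenced as pairs of 150 bases, per the labels' protocols. Build GRCm39 stands in the submitters' processing notes beside HTSeq 0.11.2, R 3.5.1, fastp 0.20.1, DESeq2 1.22.2 and HISAT2 2.1.0, whose roles and order are not stated. No source used here gives the gene annotation, the strandedness or the handling of reads that match several genes. Raw counts come from a deposited table of 35434 genes, and FPKM from a second table deposited by the authors with identical gene names. The gene length that each FPKM above 0 implies was whole within 0.01 base for 100% of MC values, so FPKM here equals the count over the gene length, scaled by the sum of all counts. All 24 columns were matched to samples by library name (0 were not), and only those of MC were used. Summed FPKM is not fixed and differs between libraries.

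Means, SDs, ranks and ratios were computed in Python 3.11.15 with pandas 2.3.3 on unfiltered values. The spread calculation was tested on simulated data. A pseudocount of 1 was used only in log2 scores. The 42 gene lists, with 743 of 759 names found, were written from general knowledge. Names not found, among them Trac, Trbc1, Trbc2, Ighm, Igkc, Ighg1, Ighg2c, Mx1, Mx2, H2-L and H2-Ea, are not analysed here. Members and lists were chosen with earlier results of these data known, and the families, fixed ratios and promoters printed were chosen after values were seen. Genes named are the 25 most abundant, the 15 most variable at 10 FPKM or more, both members of each pair, and in each list the highest, the absent and those a description needs. Predicted genes, clone names and pseudogenes are left out of the first 2 sets. Biotypes were matched by symbol to RefSeq (GRCm38.p6) for 91.5% of genes. Coordinates of that build belong to the promoters alone, since the files use GRCm39. The labels name separate mice for the 3 tumours. Alternatives tried were other scalings, thresholds, summaries over tumours and leaving out each tumour.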

Additional observations from a re-analysis of the deposited data

How the results depend on the processing

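No paired analysis was possible because 1 group is described and nothing is compared between groups. Under FPKM rescaled to TPM (each library's values divided by their sum), genes with a mean of 100 or more numbered 1644 instead of 598, and list medians were 97.9 for epithelial, 80.3 for proliferation, 106 for fibroblast, 14.1 for endothelial, 67.1 for macrophage, 7.47 for neutrophil and 2.93 for T-cell genes, by construction of that scale. With mitochondrial genes left out, the 20 most abundant genes held 12.3% and the epithelial median was 42.02 FPKM. By counts with no gene length the 20 highest genes held 8.57%. Taking the median over tumours gave an epithelial median of 38.3 FPKM (the cause was not tested). Leaving out members under 1 FPKM, and so fewer genes, gave 42.3 for epithelial, 7.44 for endothelial, 4.06 for neutrophil and 1.98 FPKM for T-cell genes. Without any 1 tumour, the neutrophil median ranged over 2.78 to 3.41 FPKM, the fibroblast median over 36.9 to 51.6 FPKM and the detected genes over 11269 to 11362. Detected genes numbered 12121 at 0.5 FPKM and 7789 at 5 FPKM. With 3 tumours the SDs are themselves imprecise, and genes at a few counts can only be called low.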

Other observations

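The genes named here were chosen after their values were seen. H19, an imprinted noncoding RNA best known from fetal tissue, was at 421, 603 and 589 FPKM, rank 109. Other noncoding RNA genes were the snoRNA hosts Gas5, Snhg1 and Zfas1 at 147 ± 5.35, 95.7 ± 1.31 and 93.99 ± 15.9 FPKM (SD, n = 3). Wfdc2, an epithelial secreted protein gene, was at 549, 590.5 and 651 FPKM. Mif, a cytokine gene, averaged 663 ± 39.9 FPKM, and Ifitm3, an antiviral membrane protein gene, averaged 897 ± 12.00 FPKM. The S100 family was led by S100a11 and S100a10 at 826 ± 33.9 and 628 ± 37.7 FPKM, above the neutrophil gene S100a9, whereas S100a6 was read at 0.871, 0.514 and 0.556 FPKM. How reads matching several genes were treated is not stated, so the S100a6 level is uncertain. Integrin genes were led by Itgb1, Itga3 and Itgb5 at 316 ± 27.5, 261 ± 36.6 and 123 ± 15.4 FPKM. Mgp, a matrix protein gene that restrains calcification, averaged 393 ± 120.2 FPKM.

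Of 39 Hox genes, which record position along the body, 9 (23.1%) were detected, where 31.6% of all genes and 53.6% of protein-coding genes were. Hoxa5 stood apart at 64.96, 69.1 and 69.1 FPKM, with Hoxa6 at 12.6, 14.5 and 13.5 FPKM. Of 19 Wnt ligand genes, 7 (36.8%) were detected, led by Wnt7b and by Wnt10a at 17.97, 29.6 and 16.8 FPKM. Among interleukin genes Il23a, a subunit of IL-23, was at 22.4, 20.4 and 23.5 FPKM, below Il1b alone. Among chemokine genes Cxcl16 was the highest at 101, 88.6 and 108 FPKM, with Cxcl14 at 70.9, 77.8 and 45.7 FPKM. Fgf ligand genes were almost silent, with 1 of 22 detected, while Toll-like receptor genes were detected in 10 of 12 cases, led by Tlr3 at 18.6, 19.6 and 16.2 FPKM.

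Some levels stand out within their own family. Among cytosolic ribosomal protein genes, with a family median of 826 FPKM, Rpl21 was at 12.3, 5.92 and 12.9 FPKM and Rpl29 at 33.4, 28.8 and 34.9 FPKM. The predicted gene Gm26917 was at 652, 859 and 732 FPKM, the 1 predicted gene of 12319 with a mean of 100 FPKM or more. Cdkn2a was at 0.349 ± 0.243 FPKM while Mtap, its close neighbour on the chromosome, was at 344, 362 and 356 FPKM.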
